A study of Homo sapiens with 6 samples.

Results

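Glycolysis and its hypoxia-induced neighbours were followed as 40 named genes of 15284 genes listed in both deposited tables. The 40 were taken by symbol, from a list made with earlier results of these data known. They are 4 glucose and lactate transporters, 17 glycolytic enzymes, 4 regulators of glycolytic flux, 3 genes of oxygen sensing and 12 other genes induced by low oxygen. Glycolytic genes and the 15 hypoxia genes outside glycolysis (oxygen sensing and the other induced genes) were kept apart. Poly(A) RNA of HCT116 cells, a human colorectal carcinoma line, was sequenced. KO2 cells received one guide RNA against MUC3A, an intestinal membrane mucin, KO1 cells received another, and WT cells were the controls. The labels call KO2 and KO1 MUC3A knockouts, and WT both wild type and negative control, and a scrambled virus is part of the protocol, which leaves the infection of WT cells unsettled. Virus made with lentiCRISPR v2, which carries Cas9 and the guide, was used at a multiplicity of infection of 10, followed by puromycin at 2 µg/mL for 72 h. No isolation of a clone is described in the labels' protocols.

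Each group has 2 libraries, one column of which starts with HCT116 and the other with HCT. These are called the HCT116 set and the HCT set here; both are the same cell line by the labels, which do not explain the prefix. Total counts ran from 13638724 to 17830282 per library. The labels do not make the 2 libraries of a group separate cultures, so p-values measure library spread alone, and it may be technical. Reads on MUC3A numbered 356 (HCT116 set) and 574 (HCT set) in KO2, 370 and 789 in KO1, and 319 and 810 in WT, and a count over the whole gene does not read a small edit. Of the colon epithelial markers, EPCAM had 3180 to 4532 reads and KRT8 48585 to 105302 reads per library, whereas CDX1 and VIL1 had at most 3 reads in any library. PTPRC, which defines leukocytes, DCN of fibroblasts, SALL1 of the HEK293T packaging lineage and CDH5 of endothelium had at most 1 read in any library. Other genes of those lists were read: COL1A1, a collagen of fibroblasts, had 444 to 1268 reads per library, PAX2 142 to 428, CD68 89 to 284, SIX2 22 to 89 and VWF 8 to 50. Transcripts of the mitochondrial genome took 6.95% (HCT116 set) and 8.90% (HCT set) of counts in KO2, 4.20% and 5.94% in KO1, and 4.84% and 5.34% in WT.

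Glycolysis splits glucose into pyruvate in the cytosol, and lactate dehydrogenase turns pyruvate into lactate, which leaves the cell through monocarboxylate transporters. When oxygen is low, prolyl hydroxylases of the EGLN family stop marking the HIF alpha subunits for degradation, and HIF binds short hypoxia response elements and raises transcription of glucose transporters, most glycolytic enzymes, PDK1 and many genes outside glycolysis. Colorectal carcinoma cells are known for high glycolysis also where oxygen is present. HIF1A itself is regulated mainly at the protein level, which RNA counts do not read.

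The core of the hypoxia response element was searched as ACGTG and GCGTG on both strands (reverse complements CACGT and CACGC) in the 250 bases before each gene's start, from RefSeq on GRCh38.p14. Windows were at hand for 34 members, and those of SLC2A3, SLC16A1, VEGFA, NDRG1, BNIP3L and HILPDA were not used here. Either core was present in 21 of the 34 (61.8%), against 15172 of 35116 windows of the whole reference (43.2%). That background counts every listed window, whereas a member has its first listed window only, so the comparison is rough. The members were listed as glycolysis and hypoxia genes, so their share is no finding of these data. ACGTG was in 14 members (41.2%, against 18.5% of all windows) and GCGTG in 12 (35.3%, against 32.2%). A match is a run of letters and not a measured binding site. The 4 windows below belong to genes whose values are given later: HK2 and BNIP3, which differed between groups, and P4HA1 and KDM3A, which were among the larger differences between the sets. They are written 5′ to 3′ on the gene's strand with the matched cores in capitals, and a palindromic run counts on both strands.

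HK2: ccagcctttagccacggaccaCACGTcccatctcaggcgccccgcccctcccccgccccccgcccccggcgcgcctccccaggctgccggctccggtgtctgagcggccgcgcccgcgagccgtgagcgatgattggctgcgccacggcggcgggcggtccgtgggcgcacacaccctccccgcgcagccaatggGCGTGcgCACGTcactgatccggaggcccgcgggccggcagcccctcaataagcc

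BNIP3: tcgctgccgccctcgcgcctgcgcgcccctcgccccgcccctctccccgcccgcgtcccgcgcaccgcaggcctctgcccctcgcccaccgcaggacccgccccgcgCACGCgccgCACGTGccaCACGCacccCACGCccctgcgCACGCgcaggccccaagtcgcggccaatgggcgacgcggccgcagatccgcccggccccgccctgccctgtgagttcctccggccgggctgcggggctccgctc

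P4HA1: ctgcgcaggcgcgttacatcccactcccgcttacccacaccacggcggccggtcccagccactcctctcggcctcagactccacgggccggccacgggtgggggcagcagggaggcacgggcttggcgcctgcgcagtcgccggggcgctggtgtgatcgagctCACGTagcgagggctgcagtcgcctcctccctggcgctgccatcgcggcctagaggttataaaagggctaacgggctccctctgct

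KDM3A: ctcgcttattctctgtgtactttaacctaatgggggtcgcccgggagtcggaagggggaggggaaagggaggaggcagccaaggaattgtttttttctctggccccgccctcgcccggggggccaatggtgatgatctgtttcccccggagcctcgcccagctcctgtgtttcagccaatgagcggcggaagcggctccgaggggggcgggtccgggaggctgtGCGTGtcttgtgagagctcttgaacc

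The HK2 window is chr2:74833877-74834126 on the plus strand and holds 3 matches, 2 of them close together near its end. The BNIP3 window is chr10:131981924-131982173 on the minus strand and holds 6, counting the palindrome on both strands. P4HA1 (chr10:73096867-73097116, minus strand) and KDM3A (chr2:86441121-86441370, plus strand) hold 1 each. No match was found in the windows of SLC16A3, EGLN3, SLC2A1 and PDK1, which says only that these letters are not in those 250 bases.

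Levels between genes were compared per length, as RPKM: reads per kilobase of exon, scaled to library size, with exon lengths from GENCODE v29. GAPDH, which oxidizes glyceraldehyde phosphate, was the most abundant member, with a mean of 3096 RPKM over the 6 libraries (range 2347 to 3476), rank 9 of the 15262 genes with a length. ENO1, an enolase, followed with 1789 RPKM (1397 to 2138) and PKM, the pyruvate kinase gene, with 1181 RPKM (958 to 1418). GAPDH lay above ENO1 in every library, and the ranges of ENO1 and PKM overlapped slightly. LDHA, the lactate dehydrogenase subunit that favours lactate, had 508.5 RPKM (367 to 731) and TPI1, the triose phosphate isomerase, 453 RPKM (335 to 602), so these neighbours in the order overlapped. Among the transporters SLC2A1, the basal glucose carrier, had the highest mean, at 202 RPKM (130.5 to 307), and its range overlapped that of SLC16A3, the lactate exporter of glycolytic cells, at 133 RPKM (65.1 to 209). SLC16A3 was the higher of the pair in the HCT116 library of WT, at 209 RPKM against 130.5 RPKM. Among the hypoxia genes outside glycolysis NDRG1, a stress-induced gene, led with 102 RPKM (29.2 to 247). HIF1A led the oxygen sensing genes with 34.5 RPKM (23.2 to 47.9), and PFKFB4, which sets the level of the activator of phosphofructokinase, had the highest mean of the flux regulators with 20.05 RPKM (10.1 to 36.3). In the HCT116 set PFKFB3 lay above it in each library, at 10.99 to 19.2 RPKM, against 10.1 to 12.8 RPKM for PFKFB4.

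Isoenzyme shares differed between the 2 sets and, for HK2 and some others, between KO2 and the other groups. HK2, the hexokinase bound to mitochondria and induced by HIF, made up 13.5% (HCT116 set) and 24.0% (HCT set) of HK1 plus HK2 RPKM in KO2, 20.7% and 39.3% in KO1, and 19.7% and 34.5% in WT. KO2 thus had the lowest HK2 share of its set in both sets. KO2 was also lowest in both sets for SLC2A3 of SLC2A3 plus SLC2A1 (0.544% and 2.41%) and for ENO2 of ENO2 plus ENO1 (1.76% and 2.95%). The same held for PFKP of PFKL, PFKM and PFKP (37.8% and 42.1%) and for BNIP3 of BNIP3 plus BNIP3L (56.1% and 42.5%), but not for LDHA or P4HA1. LDHA was 76.2% and 89.8% of LDHA plus LDHB RPKM in KO2, 80.1% and 92.7% in KO1, and 74.7% and 90.0% in WT. P4HA1, a subunit of collagen prolyl hydroxylase, was 52.6% and 66.2% of P4HA1 plus P4HA2 in KO2, 45.7% and 80.3% in KO1, and 45.7% and 75.7% in WT. These shares describe single libraries and carry no test.

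The counts of a few members are uncertain, because no source used here states the strand setting of the counting and overlapping genes cannot be told apart. ALDOA, the aldolase of muscle and most other tissues, was listed at a mean of 0.992 RPKM, and ALDOC, the aldolase known from brain, at 73.9 RPKM, so that ALDOC made up 97.5% to 99.3% of their sum. In GENCODE v29, 53.5% of the exon bases of ALDOA are shared with other genes, and the part of this overlap in its low count was not tested. Genes on the same strand share 42.3% of its exon bases and genes on the opposite strand 13.3%. Shared exon bases were 35.2% for ANKRD37 and 14.2% for GAPDH, all with the opposite strand, and 33.4% for LDHB, all with the same strand. GAPDH also has 62 pseudogenes named after it, BNIP3 39 and PGAM1 13. SLC16A1, a lactate transporter, had at most 2 reads in any library and was not tested, while SLC16A3 was read in every library. Only 3.29% of the exon bases of SLC16A1 are shared. The other 39 members passed the filter on low counts.

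**Figure D1:**
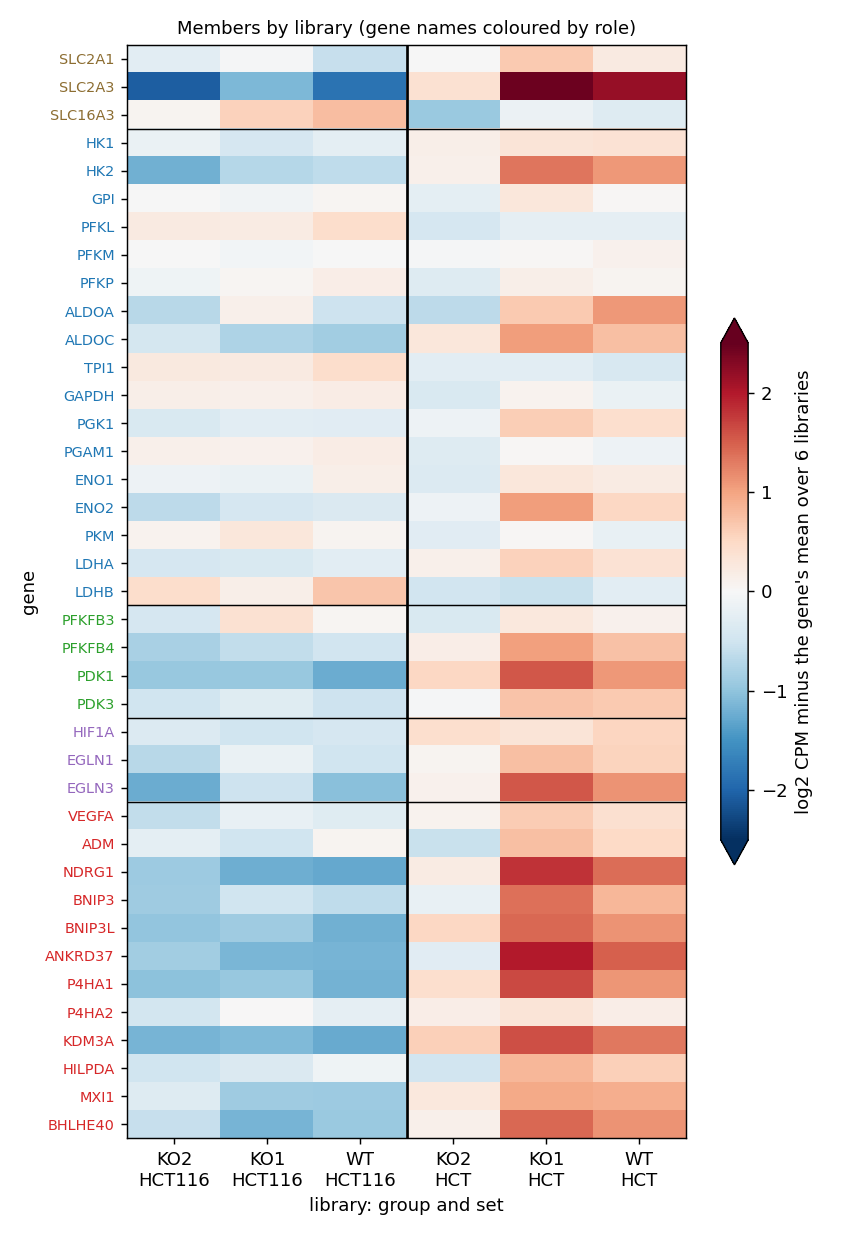
Heat map of the 39 tested members (rows, names coloured by role) in the 6 libraries (columns, group and set), coloured by log2 CPM minus the gene's mean over the 6 libraries. Most hypoxia genes outside glycolysis are high in the HCT libraries of KO1 and WT, lower in the HCT library of KO2 and lowest in the 3 HCT116 libraries. In the HCT library of KO2, ADM is the lowest of the 6 libraries, HILPDA lies within the range of the HCT116 libraries and HIF1A lies above KO1.

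Summed over genes, the 17 glycolytic enzymes took 2.02% (HCT116 set) and 1.87% (HCT set) of the counts in KO2, 2.05% and 2.51% in KO1, and 2.12% and 2.27% in WT. The 15 hypoxia genes outside glycolysis took 0.0701% and 0.149% in KO2, 0.0702% and 0.303% in KO1, and 0.0664% and 0.252% in WT. In the HCT116 set the 3 groups lay close together in both sums, and in the HCT set KO2 had the lowest value of both. In bulk RNA, a lower share may mean less of this RNA per cell or fewer cells that express the genes. It may also mean more RNA of other genes, and these cannot be told apart.

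**Figure D2:**
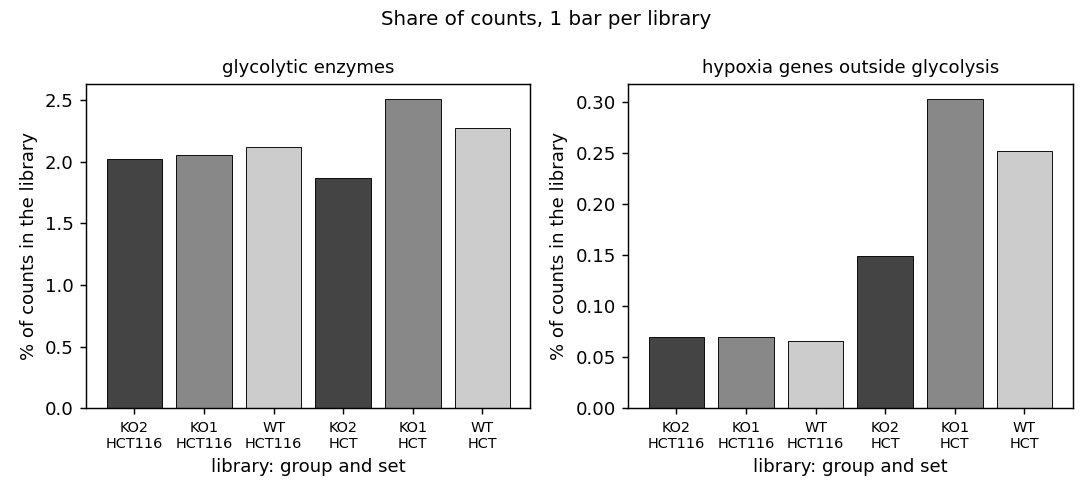
Bars give the share of all counts in a library, in percent, taken by the 17 glycolytic enzymes and by the 15 hypoxia genes outside glycolysis, 1 bar per library and no error. The enzymes stay between 1.87% and 2.51%, while the hypoxia genes are between 0.0664% and 0.0702% in the HCT116 libraries and between 0.149% and 0.303% in the HCT libraries.

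The HCT116 set against the HCT set gave the widest differences among the members. The comparison comes from a single fit over the 6 libraries with a term for the group and a term for the set (edgeR quasi-likelihood test, Benjamini-Hochberg adjustment over 12678 tested genes, call at an adjusted p under 0.05). Of the 39 tested members 25 were lower in the HCT116 set and 5 were higher, against a background of 32.1% of all tested genes called lower and 31.8% called higher. The median log2 fold change was -0.74 over the members and -0.02 over all tested genes. Of the 15 hypoxia genes outside glycolysis 14 fell, with a median of -1.40, and the median was -0.71 within KO2, -1.87 within KO1 and -1.80 within WT. The 15th, ADM, the vasodilator peptide adrenomedullin, had -0.45 ± 0.22 (SE) and an adjusted p of 0.0879. Of the 17 glycolytic enzymes 6 fell (35.3%, near the 32.1% of all tested genes) and 4 rose (23.5%, against 31.8%). Their median was -0.07 (0.21 within KO2, -0.37 within KO1 and -0.05 within WT), near the -0.02 of all tested genes.

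Among the hypoxia genes outside glycolysis, KDM3A, a histone demethylase, had the largest difference. It stood at 33.2 CPM (reads scaled to TMM library size) in KO2, 34.6 CPM in KO1 and 30.99 CPM in WT in the HCT116 set, against 112, 228 and 185 CPM in the same order in the HCT set. The sets did not overlap, and the fitted difference was 5.10-fold (log2 -2.35 ± 0.17, SE, n = 3 libraries a set, edgeR adjusted p = 3.84e-06). NDRG1 stood at 142 CPM in KO2, 115 CPM in KO1 and 109.65 CPM in WT in the HCT116 set, against 308, 928 and 699.9 CPM in that order in the HCT set (log2 -2.28 ± 0.28, adjusted p = 4.30e-05). P4HA1 gave 45.8 CPM in KO2, 48.0 CPM in KO1 and 40.8 CPM in WT in the HCT116 set, against 125, 290.2 and 199.9 CPM in the HCT set (log2 -2.11 ± 0.18). In both genes the KO2 library was the lowest of the HCT set and not of the HCT116 set.

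In oxygen sensing, EGLN3, a prolyl hydroxylase that is itself a HIF target, fell by 1.88 on the log2 scale and EGLN1, the main oxygen sensor of the family, by 0.91. HIF1A had 111 CPM in KO2, 98.9 CPM in KO1 and 104 CPM in WT in the HCT116 set, against 188, 175 and 204 CPM in the HCT set, and fell by 0.85 on the log2 scale (SE 0.10, adjusted p = 2.69e-05).

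Among the transporters SLC2A3, a high-affinity glucose carrier, had the largest difference of all 39 members. It had 3.45 CPM in KO2, 6.57 CPM in KO1 and 4.01 CPM in WT in the HCT116 set, against 18.6, 78.9 and 65.1 CPM in the HCT set, a 10.5-fold difference (log2 -3.40 ± 0.24, adjusted p = 3.84e-06). SLC16A3 went the other way, with 668 CPM in KO2, 946 CPM in KO1 and 1081 CPM in WT in the HCT116 set, against 337, 576 and 507 CPM in the HCT set (log2 0.93 ± 0.11, adjusted p = 3.64e-05). SLC2A1 fell by 0.58 on the log2 scale.

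PDK1, a kinase that inactivates pyruvate dehydrogenase in mitochondria, had the widest difference of the flux regulators. It had 11.2 CPM in both KO2 and KO1 and 9.12 CPM in WT in the HCT116 set, against 30.9 CPM in KO2, 63.4 CPM in KO1 and 45.7 CPM in WT in the HCT set (log2 -2.09 ± 0.19). PFKFB4 fell by 1.28 on the log2 scale, whereas PFKFB3, an isoenzyme with the same reaction, gave 0.00 ± 0.10.

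Of the enzymes, HK2 fell by 1.70 (SE 0.14) and ALDOC by 1.38 (SE 0.17) on the log2 scale, and LDHB, the subunit that favours pyruvate, rose by 0.86 (SE 0.10) and TPI1 by 0.61 (SE 0.12). LDHA had 1089 CPM in KO2, 1117 CPM in KO1 and 1208.5 CPM in WT in the HCT116 set, against 1598, 2170.4 and 1875 CPM in the HCT set (log2 -0.71 ± 0.12). The 2 subunits of lactate dehydrogenase thus moved in opposite directions between the sets. GAPDH and PKM, among the most abundant members, did not pass the threshold, at 0.31 ± 0.14 (adjusted p = 0.0763) and 0.29 ± 0.12 (adjusted p = 0.0563).

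**Figure D3:**
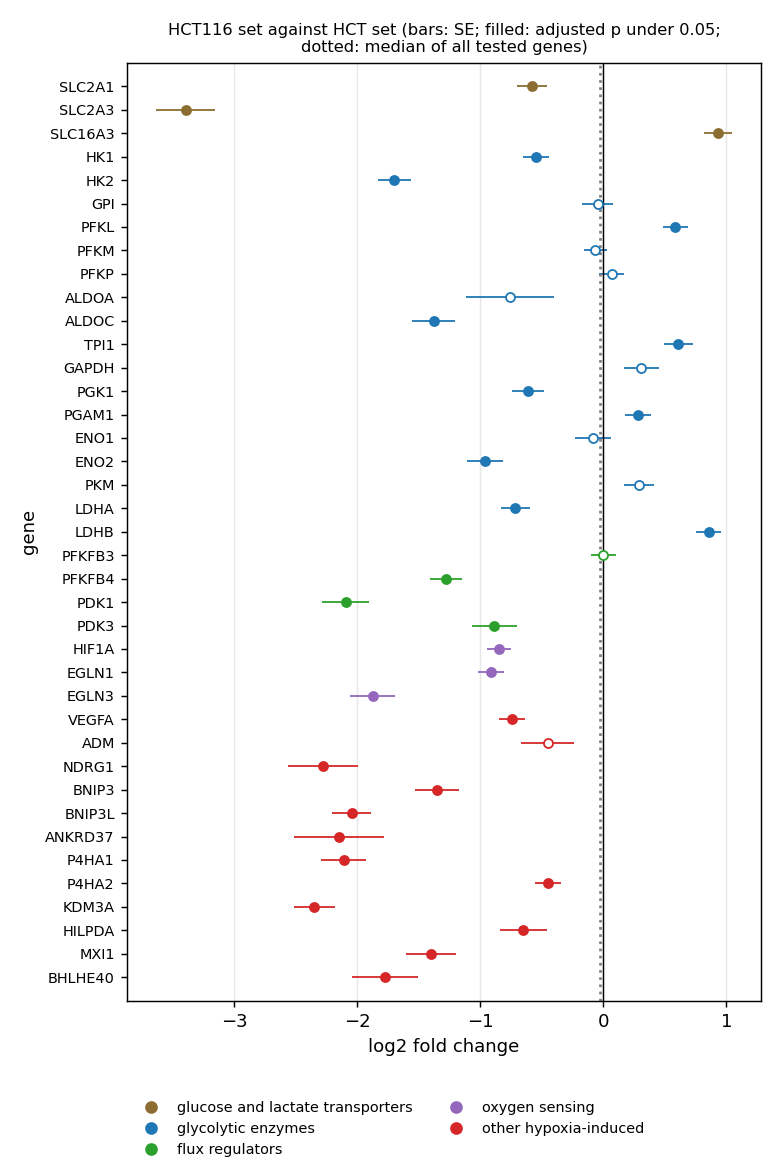
Points give the log2 fold change of the HCT116 set against the HCT set for each tested member (rows, coloured by role), with bars of 1 SE, filled where the edgeR adjusted p is under 0.05, and a dotted line at the median of all tested genes. Of the 39 points 25 are filled below 0 and 5 filled above 0, and 14 of the 15 hypoxia genes outside glycolysis are filled below 0.

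KO2 against WT: the data show lower HK2, SLC16A3 and SLC2A3 in KO2, and no member higher. Of 39 tested members 3 were called lower (edgeR, adjusted over all tested genes) and 0 were called higher, against a background of 2.47% of all tested genes called lower and 2.15% called higher. The fitted log2 fold change was negative for 38 members, against 50% of all tested genes, and 15 had an unadjusted p under 0.05, as did 19.4% of all tested genes. The median was -0.30 over the members and 0.00 over all tested genes. This median was -0.15 within the HCT116 set and -0.54 within the HCT set, where 38 of 39 ratios were negative, against 24 of 39 in the HCT116 set. KO2 libraries had the highest share of mitochondrial counts in both sets, as given above, and the part of this in the result was not tested; with the mitochondrial transcripts left out these 3 members stayed called and PFKFB3 joined them (log2 -0.50, edgeR adjusted p = 0.0455). The result depended on single libraries. The members' median was -0.59 without the HCT116 library of KO2, -0.33 without the HCT116 library of KO1 and -0.07 without the HCT library of KO2. In the last of these fits ALDOC (0.48), NDRG1 (0.46), MXI1 (0.58) and BHLHE40 (0.51) had positive values.

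HK2, which commits glucose to the cell by phosphorylation, had 30.1 CPM in KO2, 42.2 CPM in KO1 and 44.6 CPM in WT in the HCT116 set, and 75.1 CPM in KO2, 174 CPM in KO1 and 147 CPM in WT in the HCT set. KO2 was the lowest library in each set. Against WT this was 1.71-fold lower (log2 -0.77 ± 0.16, SE, n = 2 libraries a group, edgeR adjusted p = 0.0227), with within-set log2 ratios of -0.57 (HCT116) and -0.96 (HCT). The call held with each of the 6 libraries left out. The isoenzyme HK1, which most cells express, had a fitted value of -0.07 ± 0.13.

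SLC16A3, whose CPM are given above, was also lowest in KO2 in both sets. Its fold was 1.56 (log2 -0.65 ± 0.14, edgeR adjusted p = 0.0228), with within-set ratios of -0.70 (HCT116) and -0.59 (HCT). Without the HCT116 library of WT the value was -0.51 and the edgeR adjusted p 0.256, and the call held under 11 of 13 alternatives (range of adjusted p 0.000212 to 1).

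SLC2A3 rested on the HCT set. Its within-set log2 ratios were -0.21 (HCT116), from 50 reads in KO2 and 51 in WT, and -1.80 (HCT), from 356 reads in KO2 and 1000 in WT, and the fitted value was -1.29 ± 0.29 (edgeR adjusted p = 0.0296). Without the HCT library of KO2 it was -0.40 (adjusted p = 0.388), and without that of WT -0.62 (adjusted p = 0.495), and the call held under 10 of 13 alternatives (range of adjusted p 9.41e-21 to 1).

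Each of these 3 calls ended in a fit without the set term, where the libraries of a group are compared across sets: the edgeR adjusted p was then 1 for each. The fitted log2 values were -1.64 ± 1.61 for SLC2A3, -0.66 ± 0.53 for SLC16A3 and -0.86 ± 0.89 for HK2, so the estimates were no smaller and their SE larger.

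The carrier SLC2A1 had 643 CPM in KO2 and 519.9 CPM in WT in the HCT116 set, and 769 CPM in KO2 and 903 CPM in WT in the HCT set. KO2 was above WT in one set and below it in the other, and the fitted value was 0.04 ± 0.15, the only positive one of the 39.

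All 17 glycolytic enzymes had a negative fitted value, with a median of -0.19 (-0.15 in the HCT116 set and -0.23 in the HCT set), and HK2 alone was called. GAPDH had 7569.6 CPM in KO2 and 7731 CPM in WT in the HCT116 set, and 5220.4 CPM in KO2 and 6040.2 CPM in WT in the HCT set (log2 -0.12 ± 0.17). PKM had 4135 CPM in KO2 and 4054 CPM in WT in the HCT116 set, and 3173 CPM in KO2 and 3432 CPM in WT in the HCT set (log2 -0.04 ± 0.15). LDHA gave -0.19 ± 0.15. These differences were smaller than or near their standard errors. The most negative fitted value among the enzymes was that of ALDOA, -1.09 ± 0.45, on 19 to 69 reads per library (edgeR adjusted p = 0.203), and ALDOC was at 0.00 ± 0.21.

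All 4 flux regulators had negative fitted values. PFKFB3, an inducible activator of phosphofructokinase, had 59.8 CPM in KO2, 105 CPM in KO1 and 83.2 CPM in WT in the HCT116 set, and 62.2 CPM in KO2, 96.7 CPM in KO1 and 86.6 CPM in WT in the HCT set. KO2 was the lowest in both sets with nearly the same ratio, -0.48 in each, and the fitted value of -0.48 ± 0.12 missed the threshold (edgeR adjusted p = 0.0531). It passed under 7 of the 13 alternatives run, among them DESeq2 (adjusted p = 0.0345) and limma-voom (adjusted p = 0.0434), with a range of 0.00485 to 1 over all of them. PDK1, at the CPM given above, had within-set ratios of 0.29 (HCT116) and -0.56 (HCT) and a fitted value of -0.18 ± 0.23.

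The 15 hypoxia genes outside glycolysis had 0 calls in KO2 against WT, with 6 at an unadjusted edgeR p under 0.05. DESeq2 called 0 of them, and limma-voom called ANKRD37 (adjusted p = 0.0463) and EGLN3 (adjusted p = 0.0337). With no filter on low counts, edgeR called EGLN3 (adjusted p = 0.0473), BNIP3 (0.0299) and HILPDA (0.0238). Some of the 15 were also called in fits with a library left out. All 15 fitted values were negative, from -0.82 (ANKRD37, a HIF target of little known function) to -0.01 (HIF1A), with a median of -0.32, which was 0.06 without the HCT library of KO2. The sets differed in direction for this group: in the HCT set 15 of 15 ratios were negative, with a median of -0.73, whereas in the HCT116 set 7 of 15 were negative, with a median of 0.09. ANKRD37 had 7.12 CPM in KO2 and 5.82 CPM in WT in the HCT116 set, and 10.7 CPM in KO2 and 36.6 CPM in WT in the HCT set. VEGFA, an angiogenic factor, had ratios of -0.31 in both sets and a fitted value of -0.31 ± 0.13 (edgeR adjusted p = 0.215). NDRG1 had within-set log2 ratios of 0.37 (HCT116) and -1.19 (HCT), and MXI1, a MYC antagonist, of 0.57 and -0.65. With 1 library for each group and set, the difference between the sets was not tested.

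**Figure D4:**
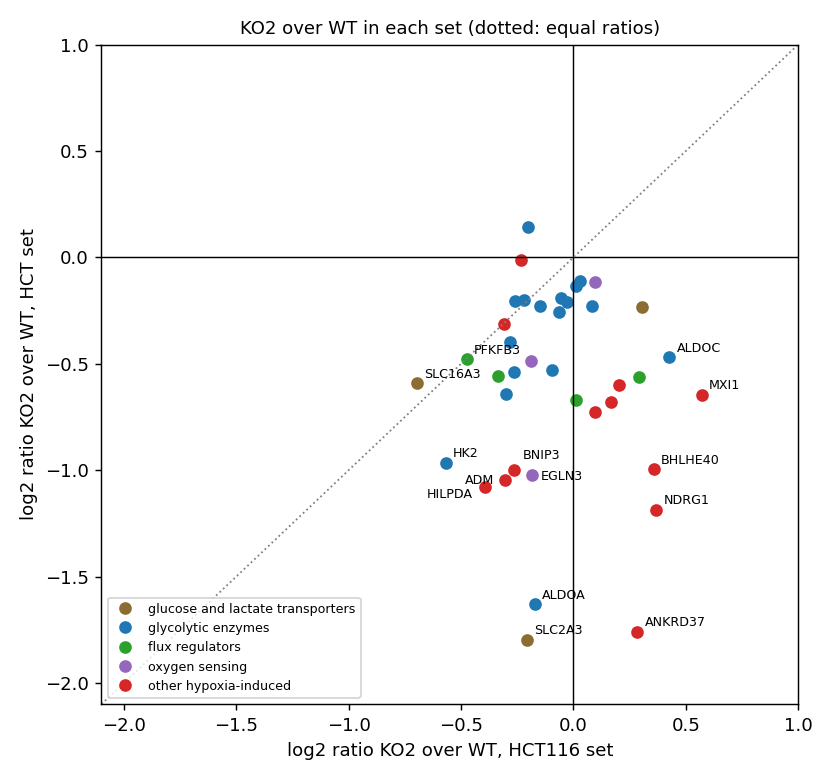
Each point is a tested member, placed by its log2 ratio of KO2 over WT in the HCT116 set (horizontal) and in the HCT set (vertical), coloured by role, with a dotted line where the 2 ratios are equal. SLC16A3, PFKFB3 and HK2 lie in the lower left with similar or nearby ratios in both sets, whereas NDRG1, BHLHE40, MXI1 and ANKRD37 lie right of 0 and below it.

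KO1 against WT: no member was called. Of 39 tested members 0 were higher and 0 lower by edgeR at an adjusted p under 0.05, against a background of 0.678% of all tested genes called higher and 0.347% called lower. DESeq2 and limma-voom also called 0, and 3 members had an unadjusted edgeR p under 0.05, as did 8.85% of all tested genes. The median of the members was 0.12, against 0.00 over all tested genes, with 28 positive fitted values and 11 negative ones. Within the sets the median was 0.01 (HCT116) and 0.23 (HCT). The fitted median of the members, 0.12 with all libraries, changed little when a KO2 library was dropped. It was 0.11 with the HCT library dropped and 0.09 with the HCT116 library dropped. More members were called in either fit, and so were more of all tested genes. SLC2A1 (0.5 and 0.48, in that order) and LDHB (-0.42 and -0.44) were among those members, with fitted values near those from all libraries. The 3 groups share 1 estimate of the spread, so the absence of calls with all libraries also rests on the KO2 libraries. KO1 against WT and KO2 against WT share the WT libraries.

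SLC2A1 had the largest positive fitted value, 0.49 ± 0.15 (edgeR adjusted p = 0.223), from 765 CPM in KO1 and 519.9 CPM in WT in the HCT116 set, and 1224 CPM in KO1 and 903 CPM in WT in the HCT set. KO1 exceeded WT in both sets. LDHB had the most negative one, -0.42 ± 0.12 (adjusted p = 0.188), from 148 CPM in KO1 and 218 CPM in WT in the HCT116 set, and 91.7 CPM in KO1 and 111 CPM in WT in the HCT set. EGLN3 was at 0.47 ± 0.21 (adjusted p = 0.560), the largest of the oxygen sensing genes, and HIF1A at -0.15 ± 0.12.

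No other member had a fitted value beyond 0.41 in size. Among the enzymes ENO2, an enolase best known from neurons, was highest at 0.26 ± 0.18, and the median was 0.04. PDK1 was highest among the flux regulators (0.40 ± 0.22), and PFKFB4 lowest (0.10 ± 0.16). Of the other hypoxia-induced genes P4HA1 was highest (0.41 ± 0.21) and ADM lowest (-0.10 ± 0.26). SLC16A3 was at 0.00 ± 0.14, with ratios of -0.19 (HCT116) and 0.18 (HCT). GAPDH was at 0.12 ± 0.17, PKM at 0.21 ± 0.15, LDHA at 0.05 ± 0.15, VEGFA at 0.18 ± 0.13 and HK2 at 0.10 ± 0.16.

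**Figure D5:**
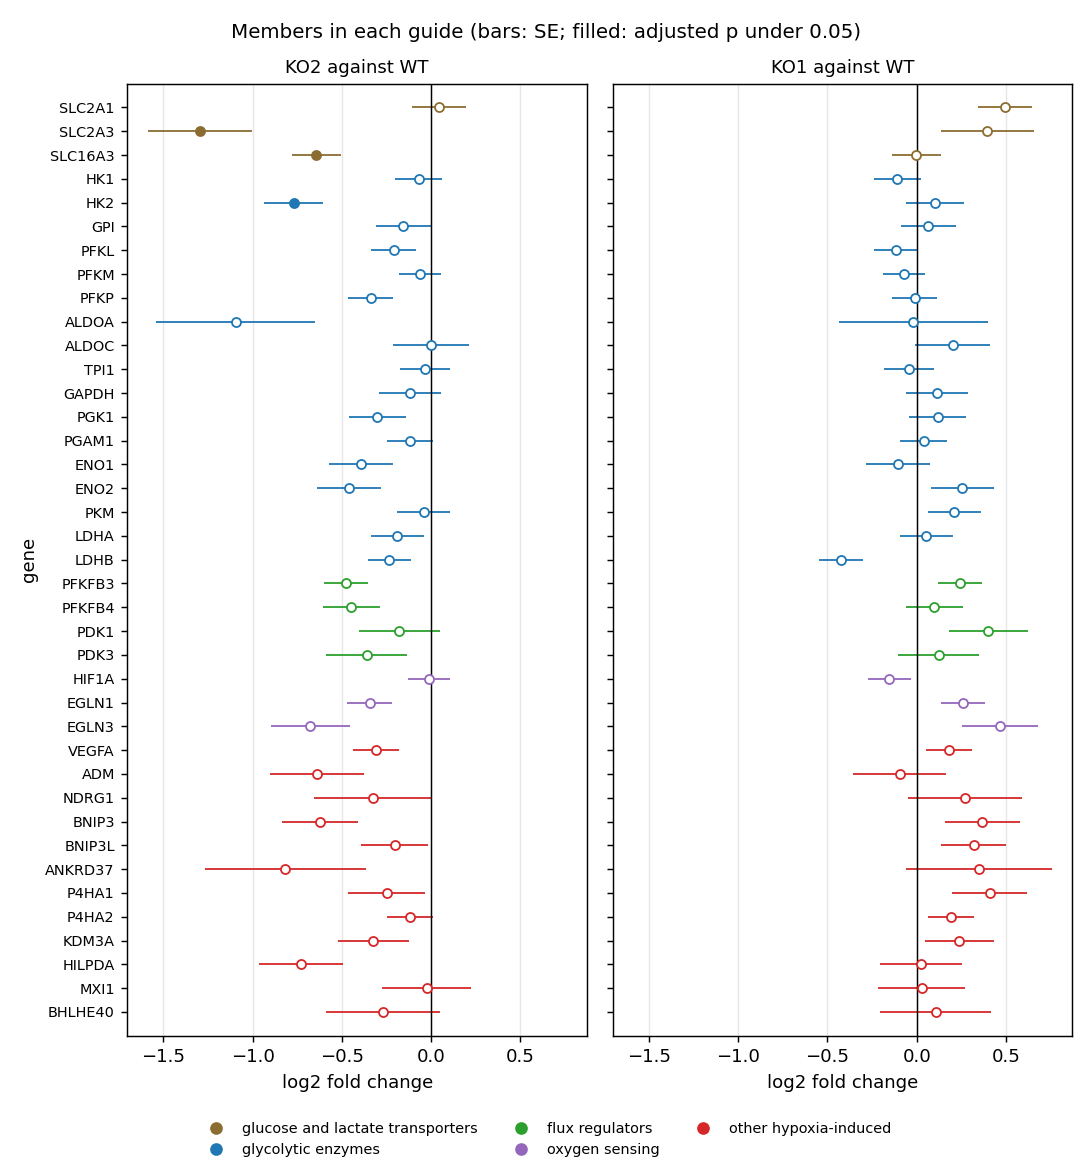
Points give the fitted log2 fold change of each tested member (rows, coloured by role) for KO2 against WT (left) and KO1 against WT (right), with bars of 1 SE, filled where the edgeR adjusted p is under 0.05. In the left panel 38 of 39 points lie below 0 and SLC2A3, SLC16A3 and HK2 are filled, and in the right panel no point is filled and 28 lie above 0.

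KO2 against KO1: the guides differed in 9 members, all lower in KO2. They are the transporters SLC2A3 and SLC16A3, the enzymes HK2 and ENO2, the regulator PFKFB3, the oxygen sensors EGLN1 and EGLN3, the angiogenic factor VEGFA and the mitophagy receptor BNIP3. Of 39 tested members 9 were lower (23.1%) and 0 higher by edgeR, against a background of 5.39% of all tested genes called lower and 4.24% called higher. The median of the members was -0.49 and that of all tested genes 0.00. It was -0.07 within the HCT116 set and -0.73 within the HCT set. This comparison uses the same KO2 libraries as KO2 against WT.

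The 9 members were below KO1 in both sets, but the size differed. SLC2A3 fell by 1.69 on the log2 scale (SE 0.29, edgeR adjusted p = 0.00398), with within-set ratios of -0.90 (HCT116) and -2.07 (HCT). PFKFB3 fell by 0.72 (SE 0.12, edgeR adjusted p = 0.00396), with ratios of -0.81 (HCT116) and -0.64 (HCT). HK2 fell by 0.87 (SE 0.16), with -0.49 (HCT116) and -1.21 (HCT), and SLC16A3 by 0.64 (SE 0.14), with -0.50 and -0.78.

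ENO2 had 92.2 CPM in KO2 and 109.75 CPM in KO1 in the HCT116 set, and 134 CPM in KO2 and 299.5 CPM in KO1 in the HCT set (log2 -0.72 ± 0.18, edgeR adjusted p = 0.0283). EGLN1 had 58.0 CPM in KO2 and 83.9 CPM in KO1 in the HCT116 set, and 98.8 CPM in KO2 and 157 CPM in KO1 in the HCT set (log2 -0.60 ± 0.13, adjusted p = 0.0116). EGLN3 had 6.22 CPM in KO2 and 10.3 CPM in KO1 in the HCT116 set, and 15.7 CPM in KO2 and 43.2 CPM in KO1 in the HCT set (log2 -1.14 ± 0.22, adjusted p = 0.0077). Both hydroxylases were lower in KO2 in each set, while the RNA of their substrate HIF1A was at 0.14 ± 0.12.

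VEGFA had 34.3 CPM in KO2 and 46.3 CPM in KO1 in the HCT116 set, and 55.8 CPM in KO2 and 81.5 CPM in KO1 in the HCT set (log2 -0.49 ± 0.13, edgeR adjusted p = 0.0352). BNIP3, whose window with 6 core matches is printed above, had 38.8 CPM in KO2 and 51.1 CPM in KO1 in the HCT116 set, and 63.8 CPM in KO2 and 187 CPM in KO1 in the HCT set (log2 -0.99 ± 0.21, adjusted p = 0.0143). VEGFA thus differed by a similar ratio in both sets, -0.43 (HCT116) and -0.55 (HCT), and BNIP3 by unequal ones, -0.39 and -1.55. Without the HCT library of KO1 PFKFB3 alone of the 9 kept its call, while the log2 value of VEGFA was -0.43, of EGLN1 -0.61, of EGLN3 -0.96 and of SLC2A3 -1.44, and the genes called among all tested numbered 391, against 1220 with it; without the HCT116 library of KO1 6 kept theirs. The median of all members was -0.22 without the HCT library of KO1 and -0.61 without its HCT116 library. It was -0.68 without the HCT116 library of KO2 and -0.49 without either library of WT. Leaving out the HCT library of KO2 gave a median of -0.12, and MXI1 (0.55) and BHLHE40 (0.42), which are not among the 9, were then positive. With upper-quartile scaling VEGFA lost its call (adjusted p = 0.0501, within 0.00518 to 1 over 13 alternatives).

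Some markers of cell types also differed between the guides. Of all tested genes, 5.39% were called lower and 4.24% higher in KO2 against KO1. Lists of 1 to 5 tested genes are too short to set against these shares. In KO2 against KO1 1 of 3 tested leukocyte markers was lower, CD68, a lysosomal protein that is not confined to macrophages, and their summed level was 3.17 to 7.17 RPKM in KO2, 10.8 to 11.4 RPKM in KO1 and 4.77 to 4.998 RPKM in WT. Of the 8 listed HEK293T lineage genes 5 were in both tables and 2 were tested: PAX2 was higher and SIX2 lower, and SIX2 was lower also in KO2 against WT. Their sums were 5.25 to 7.82 RPKM in KO2, 4.97 to 6.75 RPKM in KO1 and 5.15 to 7.30 RPKM in WT. Of 5 tested colon epithelial markers 3 were lower in KO2 than in KO1 (CDH1, KRT8 and KRT18), with sums of 1147 to 2025 RPKM in KO2, 1768 to 3501 RPKM in KO1 and 1363 to 1926 RPKM in WT. Of the fibroblast genes 0 of 2 tested and of the endothelial and erythroid genes 0 of 1 tested were called, with sums of 8.34 to 10.1 RPKM (fibroblast) in KO2, 5.29 to 9.60 RPKM in KO1 and 6.39 to 9.80 RPKM in WT. The endothelial and erythroid sums were 0.26 to 0.59 RPKM in KO2, 0.76 to 1.63 RPKM in KO1 and 1.196 to 1.197 RPKM in WT. The part of these markers in the members' result was not tested.

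Other genes of the same pathways were read from 2 further lists. Of 42 tested genes of sugar and pyruvate metabolism outside the members, 0 were called in KO1 against WT and 1 was lower in KO2 against WT (2.38%, near the 2.47% of all tested genes). It is HKDC1, a hexokinase, at 1.17 to 1.26 CPM in KO2 and 2.99 to 4.17 CPM in WT (log2 -1.55 ± 0.38, edgeR adjusted p = 0.0434). Their median was 0.02 in KO2 against WT. In KO2 against KO1 2 of the 42 were higher (4.76%, near the 4.24% of all tested genes), among them MPC2, a subunit of the mitochondrial pyruvate carrier, by 0.65 on the log2 scale, and 0 of the 42 fell, against 5.39% of all tested genes.

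Of 46 tested genes of the HIF pathway outside the members, 2 were higher (4.35%, against 2.15% of all tested genes) and 3 lower (6.52%, against 2.47%) in KO2 against WT. In KO1 against WT 3 were higher (6.52%, against 0.678%) and 0 lower (against 0.347%). CA9, a carbonic anhydrase on the cell surface and a classic hypoxia marker, had 3.94 CPM in KO2, 0.386 CPM in KO1 and 1.26 CPM in WT in the HCT116 set, and 10.7 CPM in KO2, 0.469 CPM in KO1 and 2.02 CPM in WT in the HCT set. It was thus highest in KO2 in both sets (log2 2.09 ± 0.36 against WT, edgeR adjusted p = 0.00803), opposite in sign to the 3 members called. EPAS1, which encodes the second HIF alpha subunit, had 21.1 CPM in KO2 and 30.4 CPM in WT in the HCT116 set, and 43.8 CPM in KO2 and 97.4 CPM in WT in the HCT set, and fell by 0.86 (SE 0.16, adjusted p = 0.0124). FOSL2, an AP-1 factor, and DDIT4, an inhibitor of mTORC1, each fell by 0.89 (adjusted p = 0.00762 and 0.0350).

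In KO1 against WT the called genes of the list were IGFBP3, which binds insulin-like growth factors (1.80 ± 0.21, edgeR adjusted p = 0.00171), LOXL2, a lysyl oxidase (0.88 ± 0.16, adjusted p = 0.0265), and FOSL2 (0.81 ± 0.15, adjusted p = 0.0263). FOSL2 was thus higher than WT in KO1 and lower than WT in KO2. In KO2 against KO1 4 of the 46 were higher (8.70%, against 4.24% of all tested genes) and 7 lower (15.2%, against 5.39%). IGFBP3 fell by 2.44, FOSL2 by 1.70, EPAS1 by 1.41 and LOXL2 by 1.02 on the log2 scale, and CA9 rose by 4.03, on at most 0.469 CPM in KO1 libraries. Between the sets 32 of the 46 were lower in the HCT116 set (69.6%, against 32.1% of all tested genes) and 3 higher (6.52%, against 31.8%), with a median of -0.68.

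The authors' deposited table gives its own comparison for the 40 members. In it, 0 members had a p under 0.05 against WT for either guide. The smallest p in the authors' deposited table was 0.065 for SLC2A3 in KO2 and 0.378 for SLC2A1 in KO1. Its log2 fold changes were negative for 39 of 40 members in KO2, with a median of -0.42, and for 11 of 40 in KO1, with a median of 0.17, in the authors' deposited table.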

How the data were processed

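Poly(A) RNA libraries (NEBNext Ultra, per the labels' protocols) were deposited as a table for either guide with its controls. Unnormalized read counts by gene and library were deposited by the authors, per the file headers, beside a log2 fold change and a p-value of their own comparison. STAR, HTSeq 0.6.0, DESeq2 and hg18 appear in the submitters' processing notes without their roles. WT counts are identical in both tables, which were joined on gene symbol (15284 shared genes). Another 40 columns of sample values were not used, FPKM and normalized counts among them. Levels per length were computed from the counts instead (RPKM) with merged exon lengths of GENCODE v29 (GRCh38, basic set), matched by symbol for 15262 genes, which is another build than that of the notes.

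Counts were analysed as deposited with edgeR 4.0.16 in R 4.3.3: TMM scaling, a filter by group (filterByExpr, minimum count 10), then glmQLFit and glmQLFTest with group and set terms over the 6 libraries, and Benjamini-Hochberg adjustment over 12678 genes at 0.05. The standard error is the size of the log2 fold change over the root of the F statistic. Ratios within a set are of log2 CPM with a prior count of 2. The fit leaves 2 residual degrees of freedom and assumes that the effect of a guide is the same in both sets. DESeq2 1.42.0, limma-voom (limma 3.58.1), other scalings and filters, no set term, and each library left out were alternatives. At these depths, 3 counts, taken as the floor, are 0.157 to 0.236 CPM in a library, for counting error only.

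Column names carry no replicate number, and the set pairs libraries: across genes, deviations from a group's mean correlated at 0.867 between KO1 and WT, 0.815 between KO2 and WT and 0.783 between KO2 and KO1. Libraries of 1 group differed by more than sampling noise (chi-square per degree of freedom 81.5 in KO2, 105 in KO1 and 122 in WT). Members and gene lists were chosen with earlier results of these data known. Named genes follow a rule: members called in a comparison with a guide, SLC2A1, HK2, GAPDH, LDHA, PKM, SLC16A3, PDK1, HIF1A and VEGFA, the most abundant member and the largest fitted rise and fall of each role group, at most 2 differences in each direction per role group between the sets, and of the other lists at most 6 called genes per comparison. Genes named beyond it, such as HK1, MXI1 and TPI1, were chosen after their values were seen. The scripts were tested on simulated counts.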

Additional observations from a re-analysis of the deposited data

Results flagged for a closer look

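KO2 and KO1 differed in 9 members by the edgeR quasi-likelihood test of the difference between the guides, and each was lower in KO2. The log2 differences were -1.69 for SLC2A3, -0.64 for SLC16A3, -0.87 for HK2, -0.72 for ENO2, -0.72 for PFKFB3, -0.6 for EGLN1, -1.14 for EGLN3, -0.49 for VEGFA and -0.99 for BNIP3. Of these 9, SLC2A3, SLC16A3 and HK2 were also called in KO2 against WT, and 0 in KO1 against WT. The HCT library of KO1 had the highest CPM of the 6 libraries for 7 of the 9, with PFKFB3 and SLC16A3 as exceptions, and without it PFKFB3 alone remained called. The other 8 kept negative values in that fit, from -1.44 (SLC2A3) to -0.34 (ENO2).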

How the results depend on the processing

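Without the replicate block, that is without the set term, 0 members were called lower in KO2 against WT (3 with it) and 0 in KO2 against KO1 (9 with it). That fit called 0 of 12678 genes in each comparison of a guide, with 309 at an unadjusted p under 0.05 in KO2 against WT, 513 in KO2 against KO1 and 173 in KO1 against WT. With KO2 set against WT, 7 members were lower with no filter on low counts and 6 with limma-voom; in KO2 against KO1 16 were lower with either. Over all genes, no filter called 949 in KO2 against WT (585 with it) and 316 in KO1 against WT (130 with it), and DESeq2 205 in KO1 against WT. RLE and upper-quartile scaling and leaving out mitochondrial transcripts changed no count of members by over 1.5 times, and no scaling moved the median of all genes by over 0.1. Leaving out each library in turn gave 2 to 25 lower and 0 to 4 higher members in KO2 against WT, 1 to 26 lower and 0 to 2 higher in KO2 against KO1, and 0 to 6 higher and 0 to 1 lower in KO1 against WT. The 25 came without the HCT116 library of KO2, and the 4 higher without the HCT library of KO2, as did reversed signs. In KO2 against WT the log2 fold change over the 6 fits ranged from -0.52 to 0.48 for ALDOC, -1.27 to 0.46 for NDRG1, -0.65 to 0.58 for MXI1 and -1.12 to 0.51 for BHLHE40, and in KO2 against KO1 from -0.66 to 0.55 for MXI1 and -1.18 to 0.42 for BHLHE40. A lone library left in a group is assumed to vary like the others. Calls among all tested genes also differed in number between these fits, so counts of called members are not compared between them here. In KO2 against WT the median of the enzymes ranged from -0.32 to -0.07, of the hypoxia genes outside glycolysis from -0.75 to 0.06 (positive without the HCT library of KO2) and of all members from -0.59 to -0.07. In KO1 against WT the medians ranged from -0.14 to 0.17 (enzymes), -0.07 to 0.47 (hypoxia genes outside glycolysis) and -0.13 to 0.3 (all members), the lowest of each without the HCT library of KO1. Between the sets the median of the enzymes was 0.21 within KO2 and -0.37 within KO1 (-0.17 to 0.11 with a library left out), and within KO2 those of the hypoxia genes and all members were -0.71 and -0.54. Reads are few for SLC2A3 in the HCT116 set, ALDOA and ANKRD37, which limits those values. The cause of these changes was not tested.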

Other observations

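Of 42 tested genes of sugar and pyruvate metabolism outside the members, 17 were higher (40.5%) and 10 lower (23.8%) in the HCT116 set than in the HCT set (edgeR, adjusted p under 0.05), against 31.8% and 32.1% of all tested genes, and their median was 0.00. The pentose phosphate enzyme PGLS (log2 1.27), the glucose carrier SLC2A8 (1.32) and the phosphatase G6PC3 (1.27) were higher, while PDK4, a pyruvate dehydrogenase kinase (-2.54), and the glucose carrier SLC2A12 (-3.07) were lower. In the HIF list PLOD2, a lysyl hydroxylase of collagen (-2.09), INSIG2 (-1.74) and the cyclin gene CCNG2 (-1.86) were lower, and ELOB (0.96), ELOC (0.63) and RBX1 (0.53), parts of the ubiquitin ligase that marks HIF alpha, were higher. Of the other parts of that ligase in the list, CUL2, its scaffold, was lower (-0.41) and VHL, which binds HIF alpha, did not pass the test (-0.21, adjusted p = 0.113). CUL2 and VHL were named as the remaining parts of that ligase, and the other genes were chosen among the called ones by their p and direction.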
